A study of Bos taurus with 18 samples.

Results

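The 100 genes described here had lower messenger RNA levels after heat and 6 h of recovery than in unheated cells. This held within each of 3 runs. Right after the heat their mean level had moved by less than 0.3 on the log2 scale, as the choice required. It was lower in 81 of the 100. MAC-T is an immortalised bovine line derived from mammary epithelium, and the genes were measured in it by poly-A RNA sequencing of 18 libraries in 6 groups of 3. Members were chosen from the deposited count table in 3 steps: a mean of at least 5 CPM (counts of a gene relative to its library's total) over the 18 libraries together with a gene symbol, an absolute mean log2 difference under 0.3 between heated and unheated differentiated cells, and a place among the 100 lowest by the least negative of the 3 within-run differences between 6 h of recovery and no heat. Of 30642 genes in the table, 9763 met the first step and 8598 the second, and the 100 members were taken from these 8598. The libraries that chose the members therefore also produced their low values at 6 h, and those values are given as a description without a test. The working name under which the genes were collected, lowered at 6 h alone, does not match their means. At 2 h of recovery 99 of the 100 had a lower mean as well. The same unheated libraries entered both comparisons, so lower values at 2 h were favoured by the choice.

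All 6 groups grew for 4 days at 37 °C in DMEM with insulin at 5 µg/ml, hydrocortisone at 1 µg/ml and fetal bovine serum. Undifferentiated cells stayed in this basal medium and were either left unheated (NHSUD) or held at 42 °C for 1 h (HSUD). Differentiated cells received a lactogenic medium with ovine prolactin at 5 µg/ml and dexamethasone at 10 µg/ml, and were collected unheated (NHSD), right after 1 h at 42 °C (HSD), or after the same heat and a further 2 h (D2R) or 6 h (D6R) at 37 °C. Each run used 3 plates: the first held NHSUD and NHSD, the second HSUD and HSD, and the third D2R and D6R. Heat, recovery and plate therefore cannot be told apart, and the labels give no unheated group collected at the later times. RNA of 2 technical replicates was pooled per library, all cells come from 1 line, and the whole experiment was run 3 times, so the spread between libraries is the spread between runs. In pooled RNA of many cells, fewer cells expressing a gene and less RNA per cell cannot be told apart.

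As background, heat stress unfolds proteins, halts much of translation and arrests proliferating cells, and cells that return to their normal temperature first rebuild their protein folding capacity and then resume growth. Progress through the cell cycle depends on genes transcribed in waves: those of DNA replication and nucleotide synthesis are made around the entry into S phase, and those of spindle and chromosome segregation toward mitosis. Mammary epithelial cells under prolactin and glucocorticoid also build a secretory apparatus of transporters, lipid enzymes and glycosylation enzymes, and exchange signals through ligands, receptors and extracellular matrix.

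The libraries held between 40.9 and 61.2 M counts, with scaling factors of 0.89 to 1.09. Values per library are CPM scaled by these factors (edgeR's TMM, which balances the libraries on the bulk of their genes), and log2 differences were taken within a run after adding a prior count of 2. CPM is not corrected for gene length, so it compares 1 gene between libraries and not genes with each other. A gene was called where its adjusted p over the 15158 genes tested, all 100 members among them, was under 0.05. The cells carried epithelial keratins (KRT8 at 3134 to 4640 CPM and KRT5 at 8570 to 17320 CPM), while PTPRC of leukocytes, PECAM1 of endothelium and COL1A1 of fibroblasts reached at most 0.10, 0.27 and 0.35 CPM. Levels of some genes on the lists for other cells were not low, DCN of the fibroblast list lying at 417 to 816 CPM, but the summed fibroblast list overlapped between NHSD (428 to 621 CPM) and D6R (452 to 745 CPM). The milk protein genes LALBA and CSN1S2 were at 0 in all 18 libraries and the summed list of 6 milk protein genes stayed at or under 0.0988 CPM, also in the groups labelled differentiated. Of the 18 libraries, the third-run D6R library was the lowest for 50 members and the first-run one for 33.

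At 6 h the median member stood at 70.2% of its level in unheated differentiated cells, a median log2 difference of -0.51, with a range over members from -1.19 for CCDC85B to -0.36. Run by run the medians were -0.50, -0.45 and -0.57. Among the 8598 genes ranked, 24.4% were lower in all 3 runs and 20.3% higher, with a median difference of -0.02. Both of these figures come from the contrast that chose the members. The last places went to GTSE1, TK1 and CS, each with -0.32 in the run of its smallest fall, and the first genes left out, MRAS, EEF1AKMT3 and SFN, also had -0.32 there, so the limit of 100 fell between values equal to this precision. Mirrored to the higher side, the same rule gave 100 genes whose smallest rise over the runs went from 0.98 down to 0.32. The groups of 3 D6R and 3 NHSD libraries did not overlap in 42 members, against 4.19% of the 15158 genes tested, and in 5 of these (TMEM177, HGSNAT, GPX1, EIF5A and CAMK2N2) the D6R libraries lay below all 15 others.

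**Figure D1:**
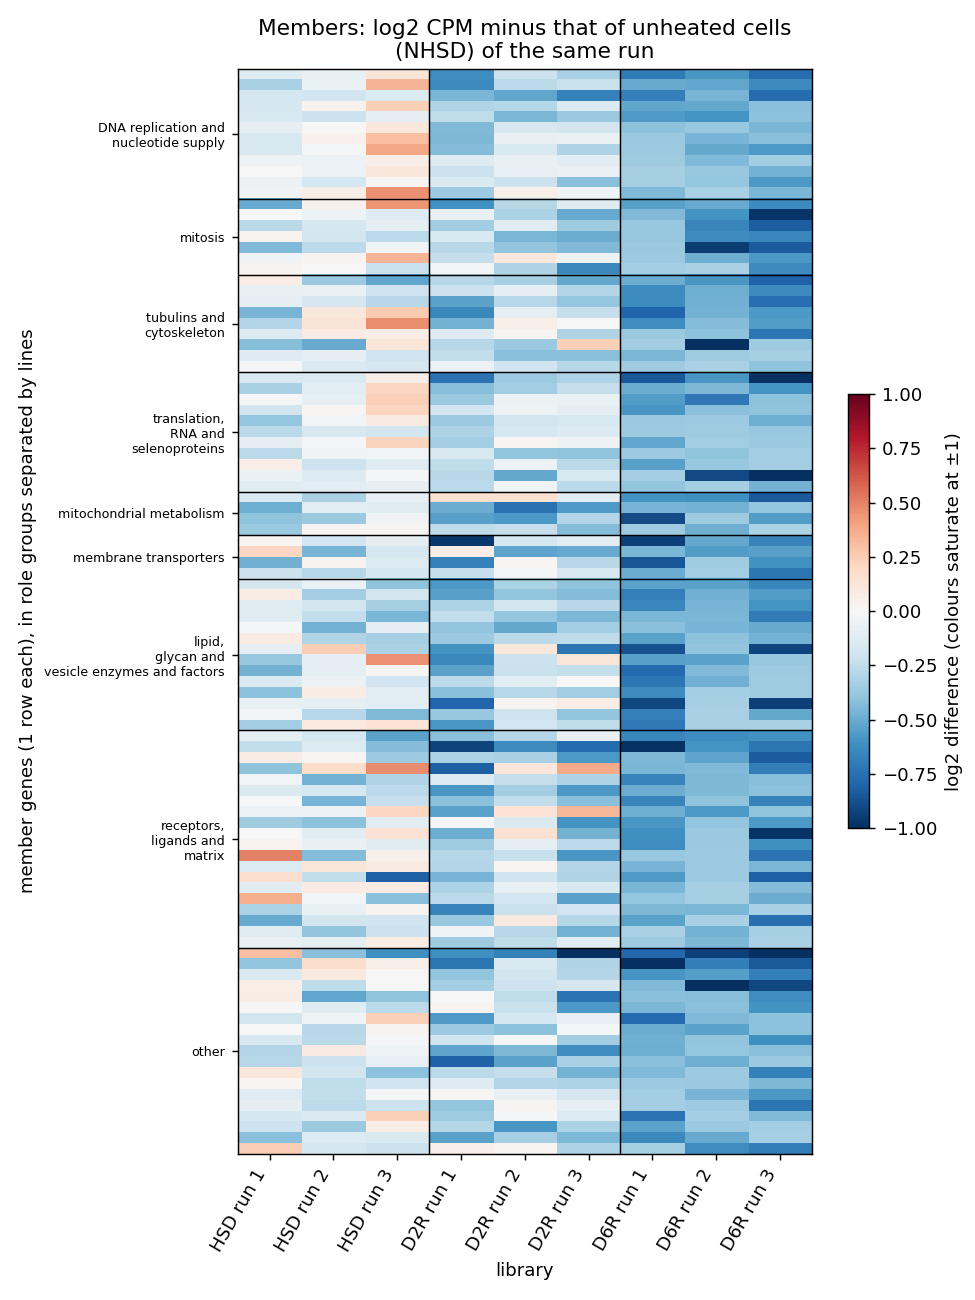
Log2 CPM of each member minus that of unheated differentiated cells (NHSD) of the same run, for the 9 libraries of heated (HSD), 2 h (D2R) and 6 h (D6R) cells, one row per gene in role groups and one column per library. All cells of the 3 D6R columns are blue (lower), as the choice of members requires, and the D2R columns are mostly paler blue. The HSD columns hold pale cells of both signs, with a few stronger ones, and 81 members were lower on average there.

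Without accounting for the runs, edgeR's quasi-likelihood test called 0 members lower at 6 h (0% of all genes tested, with 61 of the members and 2.59% of all genes lower at an unadjusted p under 0.05), and DESeq2 called 5 (0.0726% of all genes). With the run as a block it called 54 members, against 0.778% of all genes in that direction, and between 4 (without the third-run D6R library) and 49 (without the first-run D6R library) when 1 of the 6 libraries was left out. Since these libraries chose the members, the counts describe the choice and nothing is read from them. The runs differed in level: relative to each member's mean over 18 libraries, the member medians in NHSD were 0.14, 0.31 and 0.02 in the 3 runs, and those in D6R were -0.40, -0.15 and -0.54. The second-run library had the highest member median in each of the 6 groups.

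**Figure D2:**
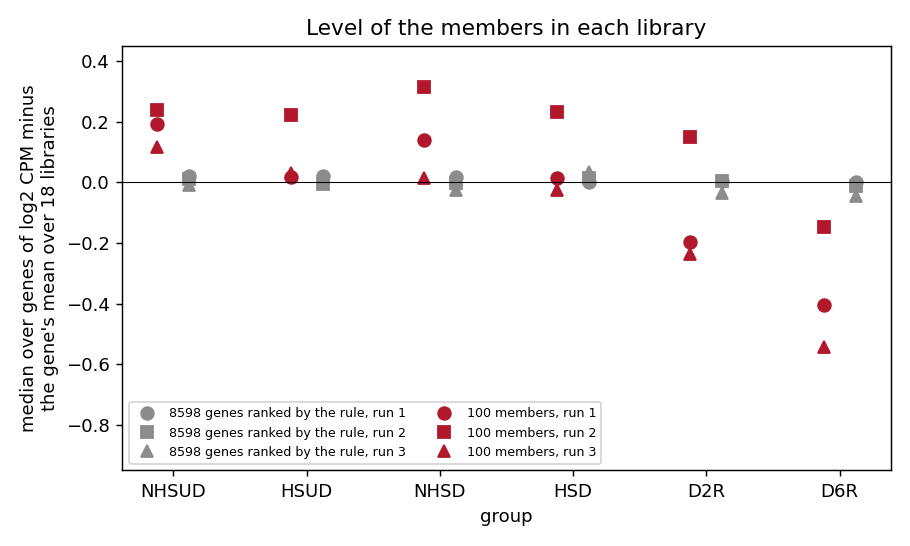
Median over genes of log2 CPM minus the gene's mean over 18 libraries, for the 100 members (red) and the 8598 genes ranked by the rule (grey), in each group and run (marker shapes). Members are lowest in D6R in every run, and second-run libraries (squares) lie above the first- and third-run ones of their group.

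Lower values than in NHSD were already seen at 2 h of recovery. The median log2 difference from NHSD went from -0.11 at the end of heat to -0.29 at 2 h and -0.51 at 6 h, and in the single runs the 2 h medians were -0.36, -0.21 and -0.29. At the end of heat, 81 members had a lower mean than in NHSD and 19 a higher one, and 97 were lower with library size alone as the scaling. In all 3 runs 37 were lower and 0 higher there, beside 866 and 1405 of the 8598 genes ranked. At 2 h, 78 members were below NHSD in all 3 runs, beside 15.4% of all genes tested. At 6 h, 95 members had a lower mean than at 2 h, beside 4720 of the 8598 genes ranked. With library size alone as the scaling, 88 members did. The share of the 6 h fall already present at 2 h had a median of 55.6% (quartiles 41.2% and 67.5%). EdgeR's test called 0 members at 2 h against NHSD (0% of all genes lower), with 7 lower at an unadjusted p under 0.05 (1.51% of all genes) and 0 calls by DESeq2, and with the run as a block it called 4 (NPTXR, TMEM209, THADA and MCCC2), beside 0.0594% of all genes. Left out in turn, 1 library at a time, the blocked count lay between 0 and 4. Because NHSD and D6R libraries entered the rule, high NHSD values and low D6R values were favoured. All these differences from NHSD and between D6R and D2R, and the share taken from them, are a description.

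The 2 h means ranged widely over the members, and the genes named here are mostly the extremes of the 100. Between D6R and D2R, edgeR called 0 members with or without the block (0% of the genes ranked). DESeq2 called 1, TMEM177, lower, beside 0.0233% of the genes ranked. Differences in timing between members were not tested. The mitochondrial protein gene TMEM177, which helps to build cytochrome oxidase, stood at 12.9, 13.6 and 12.2 CPM in NHSD, 14.4, 15.1 and 11.2 CPM in D2R and 8.50, 8.86 and 6.79 CPM in D6R. Right after the heat, every HSD library lay below every NHSD library in 2 members, TMEM177 and HGSNAT. The share among the 8598 genes ranked was 1.17%, so nothing is read from this count. TMEM177 is therefore not described as unchanged before 6 h. Its 2 h libraries overlapped those of unheated cells and its 6 h libraries lay below both. TMEM177 was the 1 member with a higher mean difference at 2 h (0.06). IL18RAP, a subunit of the interleukin-18 receptor, and UBE2C, the ubiquitin-conjugating enzyme of the anaphase-promoting complex, followed closest, with mean 2 h differences of -0.02 and -0.06, and 6 h differences of -0.49 and -0.47. At the other end CCDC85B, NPTXR and MCCC2 had the lowest 2 h means, -0.80, -0.77 and -0.60. CCDC85B also had the lowest 6 h mean (-1.19). NPTXR, a receptor for neuronal pentraxins, was at 14.4, 22.9 and 14.8 CPM in NHSD, 7.57, 14.8 and 8.67 CPM in D2R and 7.25, 15.1 and 8.89 CPM in D6R. Its D2R and D6R libraries lay close together in each run, and both were below NHSD of their run. In 5 members (MCCC2, THADA, TMEM209, PTPRG and NPTXR) the mean at 2 h was at or below that at 6 h.

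**Figure D3:**
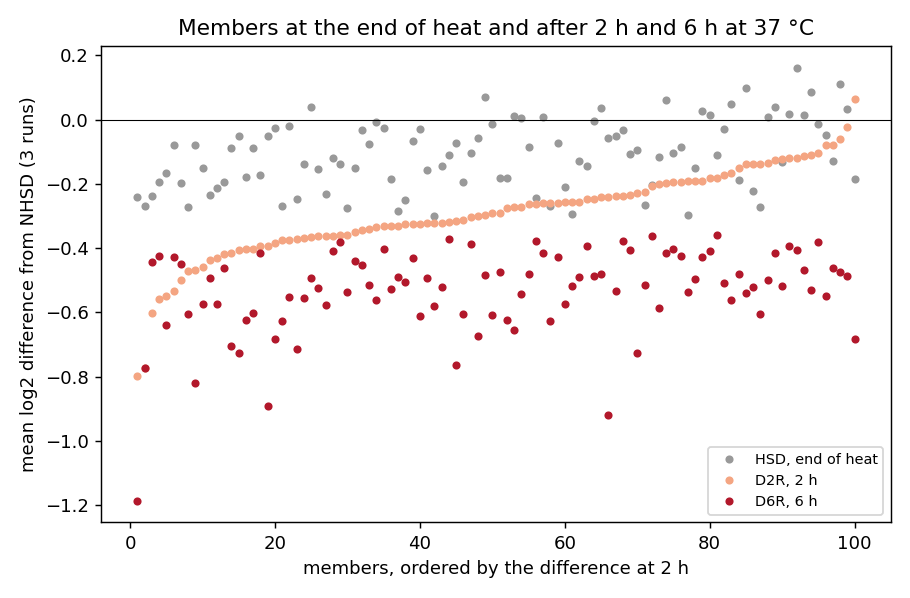
Mean log2 difference from unheated differentiated cells over 3 runs (vertical axis) for the 100 members ordered by their value at 2 h (horizontal axis), at the end of heat (grey), 2 h (orange) and 6 h (red). The 2 h values run from -0.80 to 0.06. The red points lie below the orange ones for 95 members, which the choice of members favoured.

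Members are described below in 9 groups by their known roles, formed after their values were seen. Genes of DNA replication and nucleotide supply made up 12 of the members, with a median 6 h difference of -0.46. RRM2, the small subunit of the reductase that makes deoxyribonucleotides, was at 431, 489 and 239.8 CPM in the 3 runs of NHSD, 344, 466 and 303 CPM in HSD, 277, 407 and 206 CPM in D2R and 304, 342 and 155 CPM in D6R. Its D6R library was below the NHSD library of its own run each time, but the groups overlapped because the third run was low throughout. MCM3, MCM6 and MCM7 are subunits of the helicase that unwinds DNA at replication origins. MCM3 was at 90.6, 119.7 and 62.3 CPM in NHSD and 72.1, 91.6 and 41.9 CPM in D6R. MCM6 was at 152, 144 and 83.8 CPM in NHSD and 118, 104 and 62.8 CPM in D6R. MCM7 was at 298, 334 and 209.8 CPM in NHSD and 233, 246 and 165 CPM in D6R. In each of these 3 genes the third-run libraries were the lowest of their group, and D6R overlapped NHSD. TK1, thymidine kinase, was at 143, 126 and 71.3 CPM in NHSD and 105, 101 and 51.8 CPM in D6R, also overlapping. SLC29A1, the equilibrative nucleoside transporter, was at 78.8, 113 and 73 CPM in NHSD and 48.3, 75.5 and 43.1 CPM in D6R, and these groups overlapped through the high second-run D6R library.

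The other replication members were DTL, which marks replication factors for degradation, the histone chaperone ASF1B, the growth-associated TCF19, the purine synthesis enzyme ADSL, the checkpoint factor RHNO1 and MMS19, which loads iron-sulfur clusters onto DNA enzymes. TCF19 stood at 30.9, 35.8 and 20.1 CPM in NHSD and 19.3, 25.9 and 11.8 CPM in D6R. MMS19 was at 47.1, 63 and 60.7 CPM in NHSD and 31.9, 41.7 and 45.6 CPM in D6R. MMS19 was the 1 replication member whose D6R libraries did not overlap those of NHSD. All 12 had lower means at 2 h than in NHSD, 11 of them in all 3 runs, beside 15.4% of all genes tested. All 12 were also lower on average in NHSD than in NHSUD (median -0.13, and 11 of 12 with library size alone as the scaling). In every run 6 of them were lower, beside 19.6% of all genes tested.

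A wider list of 35 replication genes, of which 5 are members (RRM2, MCM6, MCM7, MCM3 and TK1), gave 29 lower and 6 higher means at 6 h, with a median of -0.22 beside -0.00 for all genes tested. Without the members, 24 of 30 were lower, with a median of -0.21. In edgeR's unblocked test 0 genes of the list were called at 6 h, and MCM2 alone was called lower with the block. All 35 were among the 8598 genes ranked, and 14.3% of them became members, beside 1.16% of all ranked genes. That share rests on 5 genes, 3 of them subunits of the same helicase. It and the 6 h values come from the contrast that chose the members. The list was chosen with earlier results known, so these figures are a description.

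Mitosis genes gave 7 members with a median 6 h difference of -0.56: PLK1, the kinase that drives mitotic entry, CDCA3, UBE2C, the kinetochore protein SKA3, the condensin subunit NCAPH, and the spindle-associated proteins FAM83D and GTSE1. SKA3 was at 41.7, 38.9 and 21.9 CPM in NHSD, 27.5, 32.2 and 20.1 CPM in D2R and 28.6, 27.4 and 14.1 CPM in D6R. PLK1 was at 78.6, 97.5 and 59.6 CPM in NHSD, 61.9, 89.5 and 46.6 CPM in D2R and 60.3, 61.6 and 33.7 CPM in D6R. For all 7 the D6R and NHSD libraries overlapped, since the third-run NHSD library was lower than at least 1 D6R library of another run. On a list of 30 mitosis genes, of which PLK1 is the 1 member, 27 had a lower mean at 6 h, with a median of -0.16, and with the block edgeR called PLK1 alone.

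Tubulins and cytoskeletal genes were 9 members with a median of -0.59. TUBA1B, an alpha tubulin, was at 4931, 4153 and 2651 CPM in NHSD and 3212, 3068 and 1796 CPM in D6R. TUBB, a beta tubulin, was at 1885, 1983 and 1487 CPM in NHSD and 1091, 1431 and 999 CPM in D6R. The 6 h differences of TUBB were -0.79, -0.47 and -0.57, with non-overlapping groups, whereas the TUBA1B groups overlapped. Tubulin genes are near-identical copies and may share reads, so TUBA1B, TUBB and TUBB6 are uncertain as single genes. FSCN1, fascin, which bundles actin filaments, was at 264, 334 and 367 CPM in NHSD and 187, 224 and 209.8 CPM in D6R, and its groups did not overlap. CRIP2, a LIM-domain protein, was at 52.5, 62.7 and 51.2 CPM in NHSD and 34, 44.6 and 32.8 CPM in D6R, also without overlap. TBCD, a tubulin folding cofactor, BCAS3 and MYH15 also belonged to the group.

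The translation and RNA group of 11 had a median of -0.43. SRM makes spermidine, and EIF5A is the translation factor that carries a modification made from spermidine. SRM was at 63.5, 83.5 and 44.6 CPM in NHSD, 38, 65 and 36.1 CPM in D2R and 35.4, 55.6 and 21.8 CPM in D6R, each D6R library below its own run's NHSD but with overlap between the groups. EIF5A was at 978, 928 and 761 CPM in NHSD and 682, 727 and 588 CPM in D6R, and its D6R libraries were below every other library of the data set. Others included EIF2B1, a subunit of the exchange factor for initiation, EEFSEC, which delivers selenocysteine, the selenoproteins SELENOH and GPX1, the RNA acetyltransferase NAT10, PUSL1, WDR77 and the mitochondrial ribosome factor ERAL1. GPX1, glutathione peroxidase 1, gave 361, 285 and 333 CPM in NHSD and 241, 214 and 251 CPM in D6R. The list of 38 ribosome biogenesis genes held 0 members, where 1.16% of all ranked genes were members. On that list 34 genes had a lower mean at 6 h, with a median of -0.16.

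Mitochondrial metabolism gave 4 members. CS, citrate synthase of the Krebs cycle, stood at 177, 245 and 231 CPM in NHSD and 139, 174 and 185 CPM in D6R, with overlap. MCCC2 belongs to the biotin-dependent carboxylase of leucine breakdown, and HLCS attaches biotin to such carboxylases. MCCC2 was at 22.4, 35.8 and 36.4 CPM in NHSD, 15.9, 21.4 and 24.5 CPM in D2R and 16.2, 25.8 and 27.7 CPM in D6R. HLCS was at 6.85, 7.28 and 8.98 CPM in NHSD, 4.68, 4.87 and 7.33 CPM in D2R and 3.67, 5.67 and 6.07 CPM in D6R. Both were lower at 2 h than without heat in all 3 runs, and HLCS alone of the pair separated NHSD from D6R without overlap.

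Among 4 membrane transporters and channel regulators were SLC1A5, the glutamine transporter, SLC17A7, SLC17A9 and FXYD6. SLC1A5 was at 186, 178 and 122 CPM in NHSD, 95.5, 157 and 113 CPM in D2R and 97.6, 125 and 76.4 CPM in D6R. Its groups overlapped, because the third-run NHSD library lay below the second-run D6R library. Together with SLC29A1, 4 solute carriers belonged to the members, 2.84% of the 141 solute carrier genes ranked, beside 1.16% of all ranked genes.

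Lipid, glycan and vesicle genes formed a group of 14 with a median of -0.52, and all 14 had lower means at the end of heat and at 2 h as well. ALG3, a mannosyltransferase of N-glycan assembly, was at 17.7, 19.7 and 18.9 CPM in NHSUD, 21.3, 27 and 25.3 CPM in NHSD and 14.7, 18.5 and 16.1 CPM in D6R. It was higher in NHSD than in NHSUD without overlap, and its D6R libraries were below NHSD and close to NHSUD. SCAP, which escorts the sterol-sensing SREBP factors out of the endoplasmic reticulum, was at 80.8, 106 and 90.1 CPM in NHSD and 55.8, 79.9 and 64.8 CPM in D6R, and its lowest NHSD library was just above its highest D6R library. SCARB1, the receptor for high-density lipoprotein, was at 14.1, 18 and 17.1 CPM in NHSD and 10.5, 13 and 12.1 CPM in D6R, without overlap. HGSNAT, a lysosomal acetyltransferase, was at 22.9, 24.5 and 26.1 CPM in NHSD and 14.5, 17.7 and 17.2 CPM in D6R, and every D6R library lay below every NHSD library. The others were MBOAT7, which attaches fatty acids to phosphatidylinositol, the monoglyceride lipase MGLL, the ceramidase ACER3, the ribonuclease RNASET2, the glucose-6-phosphatase G6PC3, the endocytic adaptor EPN1, and ARSH, TRAPPC9, TM9SF4 and RNF26. In 10 of the 14 the D6R and NHSD libraries did not overlap, beside 4.19% of all genes tested, in the contrast that chose the members.

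Receptors, ligands and matrix genes were the largest group, 20 members with a median of -0.52. FAM20A, which activates a secretory kinase, was at 11.3, 12.1 and 8.65 CPM in NHSD and 7.18, 7.82 and 5.66 CPM in D6R, without overlap. The receptor tyrosine kinase AXL was at 19.4, 27.9 and 19.2 CPM in NHSD and 14.2, 19.4 and 10.8 CPM in D6R, with overlap. The metalloproteinase inhibitor TIMP3 was at 49.8, 70.2 and 77.1 CPM in NHSD and 36.5, 51.2 and 61.4 CPM in D6R, with overlap. The WNT antagonist DKK1, a low-count gene, was at 5.27, 3.81 and 2.25 CPM in NHSUD, 7.63, 8.53 and 4.44 CPM in NHSD, 6.24, 7.31 and 2.95 CPM in D2R and 5.86, 6.61 and 2.65 CPM in D6R, each D6R library lying below the NHSD library and above the NHSUD library of its run. PRSS23, a secreted serine protease, was at 572, 559 and 407 CPM in NHSD and 446, 409 and 326 CPM in D6R, overlapping. The group also held the scavenger receptor for CXCL12 (ACKR3), the activin antagonist FSTL3, the milk fat globule protein MFGE8, the channel-activating protease PRSS8, the receptors F2RL2, PTPRG, IL18RAP, GPR132, NMUR2 and LRP11, the ligand TNFSF12, and NPTXR, CD99, MYADM and TMEM158.

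Most members of this group had a higher mean in NHSD than in NHSUD. Of the 20, 16 had a higher mean in NHSD than in NHSUD, 12 of them in all 3 runs, with a median of 0.19 (17 of 20 with library size alone as the scaling). Of all genes tested, 16.7% were higher and 19.6% lower in all runs. A higher NHSD mean was also found in 10 of 14 lipid, glycan and vesicle members and 3 of 4 transporters. In the other role groups it ranged from 0 of 12 replication members to 9 of the 19 without a shared role. Over all 100 members the median was -0.03, and it was 0.01 with library size alone, so the members as a whole had no firm direction between media. The 5 members whose NHSD and NHSUD libraries did not overlap, all higher in NHSD (3.32% of all genes in that direction), were ALG3, FSTL3, NMUR2, GPR132 and PRSS8. NMUR2, a neuromedin receptor, was at 13.7, 12.7 and 12.1 CPM in NHSUD, 13.9, 14.9 and 17.5 CPM in NHSD and 9.04, 11.5 and 8.87 CPM in D6R. Since NHSD libraries entered the rule, genes high in NHSD were favoured, and edgeR called 0 members in either direction (0% of all genes), as did the blocked fit and DESeq2.

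The last 19 members share no role. CCDC85B, first by mean fall, was at 34.6, 66.3 and 37.4 CPM in NHSD, 42.8, 49.7 and 24.4 CPM in HSD, 22.6, 41.5 and 17.3 CPM in D2R and 20.1, 34.8 and 10.4 CPM in D6R. Every run showed the fall, but the second-run D6R library exceeded the first-run NHSD library. NRM, a protein of the inner nuclear membrane, was at 62.2, 64.5 and 51.9 CPM in NHSD, 47.3, 73.1 and 54.2 CPM in HSD, 37.5, 57.9 and 42.2 CPM in D2R and 28, 40.0 and 29 CPM in D6R, with D6R below NHSD throughout. DAP, a death-associated protein, was at 219.9, 261 and 238 CPM in NHSD and 146, 178 and 148 CPM in D6R, also without overlap. MT2A, a metallothionein that binds zinc and copper, was at 1020.2, 976 and 1359 CPM in NHSD, 804, 844 and 1207 CPM in D2R and 751, 368 and 722 CPM in D6R, its largest fall lying in the second run (-0.44, -1.41 and -0.91 in the 3 runs). Metallothioneins too have near-identical copies, as do RTL8C and RTL8C_1. The rest included the transcription regulators KLF16 and SSBP4, the enzymes PREP and CAPN1, the arginine sensor CASTOR1, the kinase inhibitor CAMK2N2, TMEM109, TMEM209, THADA, and the open reading frames C23H6orf226, C18H19orf48 and C4H7orf57.

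**Figure D4:**
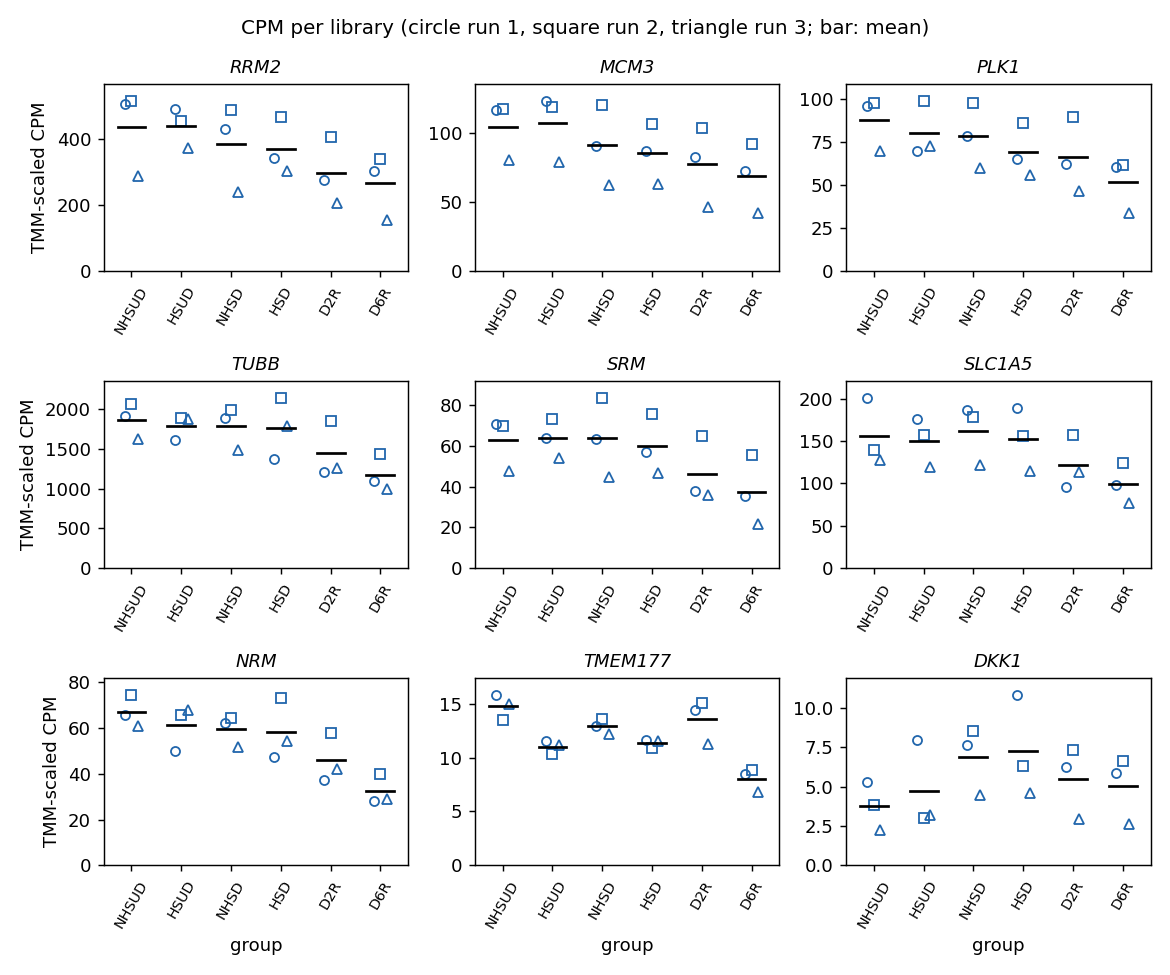
TMM-scaled CPM of 9 members in each library (marker shape gives the run, bars the mean of 3) across the 6 groups; vertical axes start at 0. The D6R mean is the lowest of each gene's 6 group means except for DKK1, which is lower in undifferentiated cells. The D2R mean of TMEM177 is above that of NHSD, while that of the other genes lies between NHSD and D6R.

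In 2 contrasts no library entered the differences used by the rule, although all 18 libraries entered its minimum on the mean CPM. Heat in undifferentiated cells (HSUD against NHSUD) gave a small shift. This contrast sets the same 2 plates of each run against each other as HSD against NHSD. The rule held that mean difference under 0.3, so a small shift here is not independent of the choice. The members' median log2 fold change was -0.05, with 68 lower and 32 higher, beside 0.01 and 48.1% lower for all 15158 genes tested. With library size alone as the scaling, the members' median was -0.15 and that of all genes -0.10. EdgeR's quasi-likelihood test called 0 members in either direction (0.0066% of all genes lower and 0.119% higher). At an unadjusted p under 0.05 it had 2 members, TMEM177 and C4H7orf57, both lower, beside 2.11% of all genes, and DESeq2 called 0. With the run as a block, 1 member was called lower, beside 0.251% of all genes, and 0 higher, beside 0.383%. The member was C4H7orf57, an open reading frame, at 8.20, 9.26 and 12.7 CPM in NHSUD and 5.24, 6.35 and 7.87 CPM in HSUD, without overlap. Its log2 fold change was -0.62 (SE 0.14), with an adjusted p of 0.0412 in edgeR's blocked test and 0.999 without the block, and it was lower in 3 of 3 runs. With 1 library left out, the blocked fit called between 0 and 2 members lower. FAM20A, TMEM177 and SLC17A7 were the other members without overlap, all lower, so 4 in all beside 3.75% of all genes in that direction. The replication members stood a little higher, 10 of 12 with a median of 0.08, but 4 of 12 with a median of -0.02 when library size alone was the scaling. The wider list of 35 replication genes had 10 lower and a median of 0.08, and 21 lower and a median of -0.02 with library size alone.

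At 2 h of recovery against unheated undifferentiated cells (D2R against NHSUD), the members' median log2 fold change was -0.30, with 88 lower and 12 higher, beside -0.00 and 50.7% lower for all genes tested. Basal and myoepithelial markers were also lower in this contrast. Of the basal epithelial genes 6 of 6 were lower, with a median of -0.38 and KRT14 and CDH3 called with the block. Of the tested myoepithelial genes 5 of 5 were lower, with a median of -0.40. Among these lists' genes MYH11, CNN1, MYLK and TAGLN reached at most 1.07, 0.40, 0.46 and 2.80 CPM, so the myoepithelial median rests on few reads. Other markers went the other way: 6 of 7 luminal epithelial genes were higher (median 0.15), as were 5 of 6 tested fibroblast genes (0.19). On the fibroblast list all genes but DCN and PDGFRA reached at most 2.00 CPM, so that median also rests on few reads. The summed basal list spanned 13928 to 21586 CPM in NHSUD and 11049.6 to 18206 CPM in D2R, the summed myoepithelial list spanned 94.5 to 211 CPM and 99.1 to 188 CPM, and their part in the members' values was not tested. The D2R and NHSUD libraries did not overlap in 22 members, all lower, beside 5.5% of all genes in that direction. EdgeR's quasi-likelihood test called 0 members lower without the block (0% of all genes), and DESeq2 called 0. At an unadjusted p under 0.05, 21 members were lower by edgeR, beside 2.42% of all genes, and 21 by DESeq2, beside 2.97%. With the run as a block it called 22 members lower, against 0.957% of all genes in that direction, and 0 higher, beside 1.17% of all genes. In the unblocked fit 0 members were higher as well, beside 0.0792%. This contrast carries the medium as well as heat, recovery and plate, which cannot be told apart in it, and it sets the same 2 plates of each run against each other as the contrast that chose the members, since D2R shared a plate with D6R and NHSUD with NHSD. A difference between these plates and the recovery cannot be told apart, so the contrast is not independent of the choice. The blocked count fell when single libraries were left out: 2 members were called without the second-run D2R library, 3 without the third-run D2R library, 3 without the first-run and 5 without the third-run NHSUD library, and 15 and 17 without the others.

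The 10 members with the smallest p in the blocked fit began with TCF19, at 35.4, 39 and 27.7 CPM in NHSUD and 22.5, 25 and 12.6 CPM in D2R without overlap. Its log2 fold change was -0.80 (SE 0.13), with an adjusted p of 0.00396 in edgeR's blocked test and 0.711 without the block. TRAPPC9, a subunit of a vesicle tethering complex, was at 54.6, 64.7 and 83.5 CPM in NHSUD and 38.9, 47.6 and 53.7 CPM in D2R, a blocked log2 fold change of -0.52 (SE 0.09) with an adjusted p of 0.00536 (edgeR). All 3 D2R libraries of TRAPPC9 were below all 3 NHSUD libraries. MMS19 followed with a log2 fold change of -0.49 (SE 0.09), with an adjusted p of 0.00723, THADA at -0.59 (SE 0.11) with 0.0103, and MCCC2 at -0.58 (SE 0.12) with 0.0180 in the same edgeR fit. C4H7orf57, at 8.20, 9.26 and 12.7 CPM in NHSUD and 5.40, 5.00 and 7.33 CPM in D2R, had -0.75 (SE 0.14) with 0.00861. The remaining 4 of the 10 were NPTXR at -0.67 (SE 0.14), NCAPH at -0.50 (SE 0.11), CRIP2 at -0.40 (SE 0.09) and NRM at -0.56 (SE 0.12). Without the block, edgeR called 0 of these 10, and their adjusted p ran from 0.576 to 0.862. The other 12 called members included FSCN1, MCM3, AXL, FAM83D, MBOAT7, SSBP4, GTSE1, RNF26, CAPN1, RRM2 and SLC29A1.

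By role, the 22 calls of the blocked fit, beside 0.957% of all genes, fell on 5 of the 12 replication members, 3 of 7 in mitosis, 3 of 9 in the cytoskeletal group, 1 of 4 in mitochondrial metabolism, 3 of 14 in the lipid, glycan and vesicle group, 2 of 20 receptors, ligands and matrix genes and 5 of 19 others, and on 0 of the 11 translation members and 0 of 4 transporters. Without the block all these counts were 0, and without the second-run D2R library 2 calls were left in all. The replication members had a median of -0.37 over the within-run differences, 12 of 12 lower, and the mitosis members -0.44, 7 of 7 lower. RRM2 was at 506, 517 and 287 CPM in NHSUD and 277, 407 and 206 CPM in D2R, with a blocked log2 fold change of -0.56 (SE 0.14) and an adjusted p of 0.0447 in edgeR. On the wider list of 35 replication genes 30 were lower (median -0.24), with 0 called by edgeR without the block and 6 with it (MCM2, MCM3, MCM4, POLE, CDT1 and RRM2). On the mitosis list 26 of 30 were lower (median -0.16), with 0 called without the block and AURKB with it. Other lists had medians as low or nearly so: 20 of 24 amino acid and ATF4 targets were lower (-0.39), 22 of 30 extracellular matrix genes (-0.26) and 26 of 35 WNT signalling genes (-0.20). Without the members the medians were -0.22 over 30 replication genes and -0.15 over 29 mitosis genes. The receptor, ligand and matrix group had other values: its median was -0.08, with 12 lower and 8 higher, among the latter DKK1 at 0.52. The difference between role groups was not tested.

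**Figure D5:**
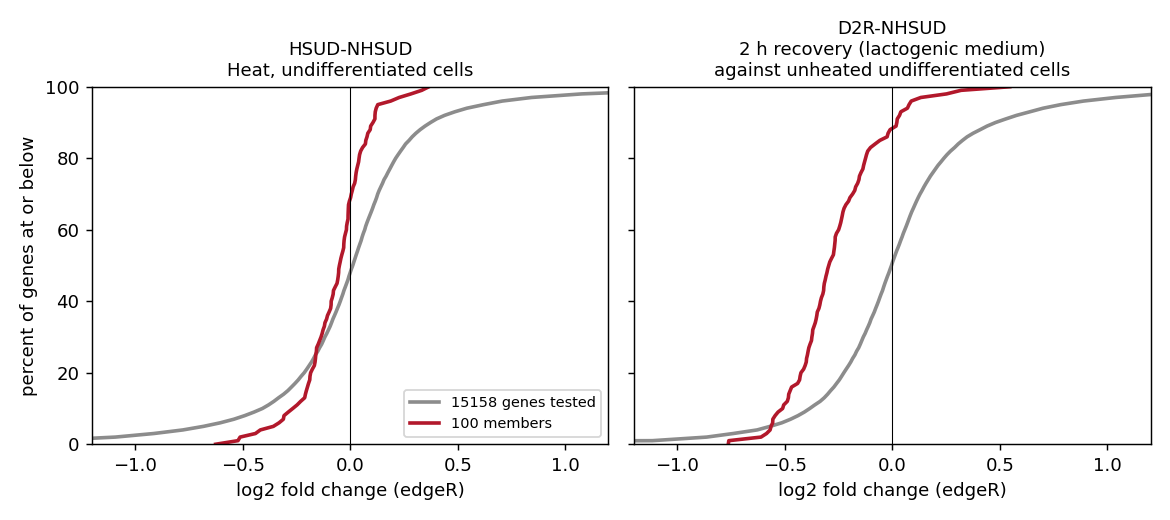
Cumulative percent of genes (vertical axis) at or below each edgeR log2 fold change (horizontal axis) for the 100 members (red) and all 15158 genes tested (grey), for heat in undifferentiated cells (left) and 2 h of recovery against unheated undifferentiated cells (right). On the left both curves cross 50% near 0 (-0.05 and 0.01), and on the right the members' curve crosses at -0.30.

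Few members belonged to the other lists. Members made up 1.16% of all ranked genes, so lists this short are due few or none, and nothing is read from a count of 0 or 1. WNT signalling (DKK1), the Hippo pathway and its targets (AXL), extracellular matrix (TIMP3) and amino acid and ATF4 targets (SLC1A5) each held 1 member. These were 6.25%, 4.76%, 5.26% and 5.56% of their ranked genes. The lists for heat shock chaperones, immediate early genes, DNA repair, interferon response, sterol synthesis and uptake, and autophagy and lysosome held 0, as did the 75 mitochondrial and 74 cytosolic ribosomal protein genes among the 8598 ranked. Only 6 of the 29 heat shock chaperones met the first 2 steps of the rule. Open reading frames gave 3 members (2.44% of those ranked) and TMEM symbols 4 (3.08%).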

How the data were processed

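Poly-A RNA of 18 MAC-T libraries was analysed. Per the labels' protocols, adapters were removed by the authors with fastp 0.23.2, and STAR 2.7.9a placed the paired reads on the ARS-UCD 1.3 assembly, and the submitters' processing notes name featureCounts 2.0.3, DESeq2 and limma. The deposited values are raw counts per gene. Strand and multi-mapping settings are not given in these sources, so near-identical copies may share reads. Among counts of 1 to 20, 72.7% were even, so both mates of a pair may have been counted. Depth was 40.9 to 61.2 M counts, and 0 columns were left unassigned. RefSeq's ARS-UCD2.0 gene table matched 99 members by name, and no sequences, coordinates or lengths were used.

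Genes were filtered with filterByExpr (minimum count of 10), scaled by TMM and tested with edgeR 4.0.16 (R 4.3.3, quasi-likelihood, robust, two-sided, 1 mean per group over all 18 libraries), with Benjamini-Hochberg adjustment over 15158 genes and a threshold of 0.05. An exact permutation test of 3 against 3 libraries cannot go below 0.1. The scripts were tested on simulated data whose planted falls were larger than the members' median fall, so this does not bear on falls of that size. Same-numbered libraries deviated together in 45 of 45 pairs (correlations of 0.135 to 0.596), and per the labels all groups were grown anew in each of 3 runs, so the numbers pair the libraries. The unblocked fit was the set design, and the fit with the run as a block is given where it changes a call. No library duplicated another of its group (smallest chi-square per gene 52.6).

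Alternatives were DESeq2 1.42.0, other scalings, filters and prior counts, other limits in the rule, the compared groups alone, the block, and each library left out. The members, role groups and gene lists were chosen with earlier results of these data known. Members named with values were the 12 lowest by the rule, the 5 with the highest mean CPM, those called in HSUD or D2R against NHSUD (10 by p at most), the 3 lowest and 3 highest at 2 h, those at the limit, and those on a list or in a family with at least 3 members. Other members with values, among them HLCS, GPX1, HGSNAT, FSCN1, SCAP, SCARB1 and NMUR2, were chosen after their values were seen. Some members are counted but not reported here by name.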

Additional observations from a re-analysis of the deposited data

Results flagged for a closer look

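In 3 members every run had a higher value with heat in undifferentiated cells and every run a lower value with heat in differentiated cells. The heat effect in undifferentiated minus differentiated cells was 0.251 on the log2 scale for ALG3, 0.564 for GPR132 and 0.209 for MGLL. EdgeR's test of this interaction gave an adjusted p of 1.00 for each, called 0 of 15158 genes (88 at an unadjusted p under 0.05, 0 of them members) and called 0 genes with the run as a block (155 at an unadjusted p under 0.05, 2 of them members). The differentiated libraries were part of the rule that chose the members.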

How the results depend on the processing

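The replicate numbers pair the libraries, so the fit with a replicate block bears on each count. With the block, members called lower went from 0 to 54 for D6R and 4 for D2R against NHSD, and to 1 for HSUD and 22 for D2R against NHSUD, and the block changed no other count of members. All genes called with the block were 220, 84 and 34 for D6R, HSD and D2R against NHSD, and 1, 96 and 322 for NHSD, HSUD and D2R against NHSUD. Leaving out 1 library, the blocked fit called 4 to 49 members for D6R against NHSD, 0 to 4 for D2R against NHSD, 0 to 2 (lower) and 0 to 1 (higher) for HSUD against NHSUD, and 2 to 17 for D2R against NHSUD. The unblocked fit always called 0. Over both fits, all genes called were then 2 to 429, 4 to 123, 8 to 766 and 0 to 473 for these contrasts, 0 to 7 for D6R against D2R, and 8 to 13 for HSD against NHSD. Such fits have fewer libraries by construction.

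DESeq2 called 5 members at D6R against NHSD and 1 at D6R against D2R, and all genes called were 39, 61 and 33 for D6R, HSD and D2R against NHSD, 3 for D6R against D2R, and 86 and 56 for HSUD and D2R against NHSUD. Fitting the compared groups alone left 0 genes for D6R and D2R against NHSD, 9 for HSUD and 0 for D2R against NHSUD. Library size alone moved the members' median to -0.19 for HSD against NHSD, -0.15 for D6R against D2R and -0.15 for HSUD against NHSUD. The cause of these moves was not tested. With 1 library left out, the median lay from -0.61 to -0.41 (D6R against NHSD), -0.40 to -0.18 (D2R against NHSD), -0.19 to -0.0095 (HSD against NHSD), -0.35 to -0.086 (D6R against D2R), -0.10 to 0.05 (NHSD against NHSUD), -0.13 to -0.0093 (HSUD against NHSUD) and -0.42 to -0.23 (D2R against NHSUD).

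Of the 100 members, 62 stayed under the mean of the 3 differences in place of the least negative one, 78 to 99 under the other settings of the rule tried, and 30 to 71 with 1 run left out of the rule. Of the 418 values of the 22 called genes for D2R against NHSUD under the alternatives, 418 were lower. Genes near 5 CPM rest on the fewest reads.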
